A study of Mus musculus with 6 samples.

Results

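The small structured noncoding RNAs of the colonic crypt were described here as 39 genes of the 18049 in a total RNA-Seq table. They were chosen by name, as every gene whose symbol begins with *Snora*, *Snord*, *Scarna*, *Rnu* or *Rn7s* together with *Rpph1*, *Rmrp*, *Terc*, *Gm24924* and *Gm26244*, and the choice was made with the treated and control values of these mice known. They comprised 24 box H/ACA snoRNAs, 7 box C/D snoRNAs, 2 scaRNAs, 2 U1-type snRNAs, 1 U12 snRNA, the RNase P and RNase MRP RNAs (2 genes) and 1 telomerase RNA. No symbol beginning with *Rn7s* was among them. All 39 passed the filter on low values (0.1 or more in 3 or more mice) and were tested.

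Crypts of mice of 1 genetic model were compared between 3 animals given vehicle (control) and 3 given GSK503, each with its own library. GSK503 inhibits EZH2, the methyltransferase that places the repressive H3K27me3 mark, and the comparison asks how crypt RNA differs after the inhibitor. All 6 animals were C57BL/6J mice carrying a *Villin-Cre* transgene, which is active in the intestinal epithelium, and a humanized *Tgf*β*RII* knock-in with a poly(A) microsatellite, and were fed a Western-style diet, so the controls carried the same alleles. Treated mice received GSK503 at 200 μg/kg into the tail vein and controls received captisol in PBS. The age at collection is not given in the sources used here.

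Small structured RNAs act as parts of RNA-protein particles. Box C/D snoRNAs guide 2′-O-methylation and box H/ACA snoRNAs guide pseudouridylation of ribosomal RNA in the nucleolus, while scaRNAs guide the same changes on spliceosomal RNAs in Cajal bodies. U1 snRNA recognises donor splice sites, U12 serves the minor spliceosome, RNase P trims the leader of precursor tRNAs, RNase MRP cleaves precursor ribosomal RNA, and *Terc* is the template of telomerase. Most mammalian snoRNAs are cut out of the introns of host genes, whereas RNase P and RNase MRP RNAs are transcribed by RNA polymerase III from genes of their own.

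The following sequences, taken from the GENCODE annotation of GRCm39, are those the values below turn on. The RNase P RNA *Rpph1* (14:51044906-51045224, minus strand, 319 bases, of which the first 300 are printed) was the member outside the U1 genes whose groups did not overlap. Capitals mark GNAANNTCNGNG, a conserved stretch searched on the RNA strand only. These letters occurred in 26 of 3523 annotated small RNA transcripts (0.738%) and in 1 member.
Rpph1: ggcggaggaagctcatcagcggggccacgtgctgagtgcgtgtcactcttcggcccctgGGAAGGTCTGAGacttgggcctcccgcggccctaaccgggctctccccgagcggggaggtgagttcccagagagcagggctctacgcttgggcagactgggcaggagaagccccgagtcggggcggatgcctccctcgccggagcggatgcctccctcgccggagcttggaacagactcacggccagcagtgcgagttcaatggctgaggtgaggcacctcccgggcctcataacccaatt
*Terc* (3:96321753-96322175, minus strand) had the highest log2 fold change of all members, and its first 100 bases are printed with CTAACC, the letters complementary to the telomere repeat, in capitals.
Terc: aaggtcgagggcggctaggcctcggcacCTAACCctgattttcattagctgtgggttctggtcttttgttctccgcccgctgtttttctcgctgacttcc

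Among the H/ACA snoRNAs, *Snora81* (16:22929506-22929683, plus strand) had the highest level and *Snora23* (7:109645571-109645754, plus strand) the highest log2 fold change of those with a mean of 10 or more. Capitals mark the bases 6 to 4 from the end, where the ACA box usually stands. ACA stood there in 18 of 24 H/ACA members and within the last 9 bases in 22 of 24, against 0 of 7 C/D members at that place. In the annotated *Snora81* the letters are ATA.
Snora81: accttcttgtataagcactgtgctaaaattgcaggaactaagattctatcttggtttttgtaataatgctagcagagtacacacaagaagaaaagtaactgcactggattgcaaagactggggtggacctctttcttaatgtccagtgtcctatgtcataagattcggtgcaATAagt
Snora23: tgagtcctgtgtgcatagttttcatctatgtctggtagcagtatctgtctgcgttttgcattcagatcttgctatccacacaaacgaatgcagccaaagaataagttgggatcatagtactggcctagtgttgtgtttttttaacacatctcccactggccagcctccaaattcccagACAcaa
*Snora73a* (4:132080086-132080290) and *Snora73b* (4:132079633-132079837), both on the minus strand, are printed because their reads can be hard to tell apart. They share 198 of 205 bases, and capitals mark the 7 that differ.
Snora73a: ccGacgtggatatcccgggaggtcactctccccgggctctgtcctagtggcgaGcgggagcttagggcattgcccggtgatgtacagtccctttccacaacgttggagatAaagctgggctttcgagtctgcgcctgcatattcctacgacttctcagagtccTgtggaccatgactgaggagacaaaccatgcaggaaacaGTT
Snora73b: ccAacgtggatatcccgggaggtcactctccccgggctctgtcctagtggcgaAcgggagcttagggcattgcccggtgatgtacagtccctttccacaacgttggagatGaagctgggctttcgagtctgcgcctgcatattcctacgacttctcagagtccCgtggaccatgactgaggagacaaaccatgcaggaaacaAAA

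The most abundant C/D snoRNAs were *Snord17* (2:144107899-144108136) and *Snord15b* (7:99128770-99128914), and *Snord15a* (7:99131992-99132139) is shown as the relative of the latter. All 3 lie on the minus strand. Capitals mark TGATGA, the C box, and the last CTGA, the D box. CTGA began within the last 16 bases in 7 of 7 C/D members and in 2 of 24 H/ACA members, and TGATGA began within the first 20 bases in 4 of 7 and in 0 of 24. *Snord15a* and *Snord15b* aligned over 162 positions with 107 identical.
Snord17: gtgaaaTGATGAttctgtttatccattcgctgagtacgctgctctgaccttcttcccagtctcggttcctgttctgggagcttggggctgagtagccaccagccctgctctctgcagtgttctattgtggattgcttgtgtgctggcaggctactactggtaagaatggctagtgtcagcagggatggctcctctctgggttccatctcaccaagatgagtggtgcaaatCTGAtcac
Snord15a: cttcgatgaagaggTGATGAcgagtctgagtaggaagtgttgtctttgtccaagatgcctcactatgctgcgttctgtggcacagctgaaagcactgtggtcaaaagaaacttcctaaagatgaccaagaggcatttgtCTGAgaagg
Snord15b: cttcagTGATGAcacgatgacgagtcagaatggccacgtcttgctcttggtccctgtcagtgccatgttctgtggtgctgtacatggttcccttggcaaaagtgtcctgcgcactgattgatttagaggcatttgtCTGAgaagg

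The authors' values are RSEM-estimated counts scaled by edgeR's TMM method (CPM, counts relative to a common library size), and values per mouse are given below in the order of mice 1, 2 and 3 of a group. Estimated totals lay between 108162850 and 135085016 counts per library, and 3 counts corresponded to between 0.0228 and 0.0271 CPM. Epithelial markers summed to between 8884 and 9757 CPM in controls and between 9418 and 10779 in treated mice. Those of B cells summed to 3.36 to 23.6 and 1.06 to 3.28, T cells to 4.94 to 7.43 and 4.50 to 6.26, and macrophages to 14.1 to 19.9 and 4.17 to 29.4. Endothelium summed to 3.16 to 5.13 and 1.64 to 7.95, smooth muscle to 18.7 to 78.7 and 4.04 to 106.6, and fibroblasts to 213.9 to 272.1 and 267.4 to 386.3. Of the 5 fibroblast markers, 2 had log2 fold changes above 0 and 3 below, with a median of -0.52. Without treated mouse 3 that median was -1.20 and 1 of 5 was above 0. Treated mouse 3 held the highest macrophage, endothelial, smooth muscle and fibroblast sums of the 6 mice, but not those of the other lists. Smooth muscle markers summed to 4.04 and 4.19 CPM in treated mice 1 and 2. *Xist* lay between 825.2 and 1236 CPM in every treated mouse and under 1 in every control, and the Y-linked *Uty* between 42.5 and 53.7 in controls and under 1.1 in treated mice, so treatment and sex as read from these genes cannot be told apart. In bulk RNA, fewer cells of a type and less RNA per cell cannot be told apart either.

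1 library stood apart for these RNAs. Control mouse 3 held the lowest of the 6 values for 31 of 39 members (79.5%), against 3192 of 16670 genes tested (19.1%). It lay below the member's own mean for 38 of 39 members, with a median deviation of -0.66 on the log2 scale. The medians of the other libraries lay between -0.07 in control mouse 1 and 0.30 in control mouse 2. The estimated total of control mouse 3 was 123983437 counts, inside the range of the others. Its mitochondrially encoded genes summed to 36826 CPM, the highest of the 6, against 29910 to 33408 in the rest, and its 62 replication-dependent histone genes to 4000 CPM, the lowest of the 6. The part of these differences in the small RNA values was not tested, so the summaries and most named members are also given without control mouse 3.

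**Figure D1:**
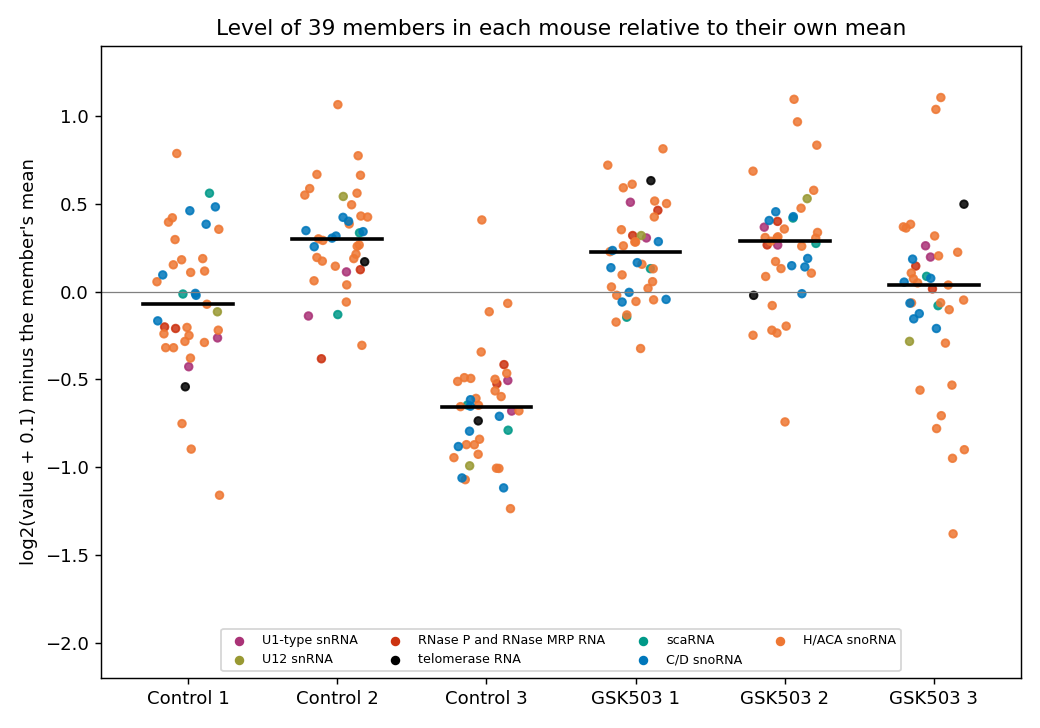
Each point is 1 of 39 small structured RNAs in 1 mouse, as log2(value + 0.1) minus the mean of that RNA over the 6 mice. Colours give the RNA class and black bars the median. The median of control mouse 3 lies at -0.66 and those of the other mice between -0.07 and 0.30.

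With all 6 mice, 36 of 39 members had a log2 fold change (GSK503 over control, on the log2(value + 0.1) scale) above 0, with a median of 0.30, against 8159 of 16670 genes tested (48.9%) and a median of -0.01. Without control mouse 3, 18 of 39 members were above 0 and the median was -0.03, against 49.8% and -0.0008 for all genes. On library size alone, without the TMM factors, 30 of 39 were above 0 and the median was 0.18, while that of all genes was -0.12. None of the 39 members (0) passed an adjusted p of 0.05 in limma with Benjamini-Hochberg adjustment over all genes, where 107 genes were called (0.642%). At an unadjusted p below 0.05 there were 2, *Rpph1* and *Terc*, against 13.3% of all genes, and limma-voom on the recovered estimated counts called 2, *Gm24924* and *Rpph1*, against 0.624%. The groups did not overlap in 3 members with the treated mice higher, *Gm24924*, *Gm26244* and *Rpph1*, and in 0 with the treated mice lower, against 9.84% and 9.22% of all genes. Because the members were chosen with these differences known, the counts describe them only.

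**Figure D2:**
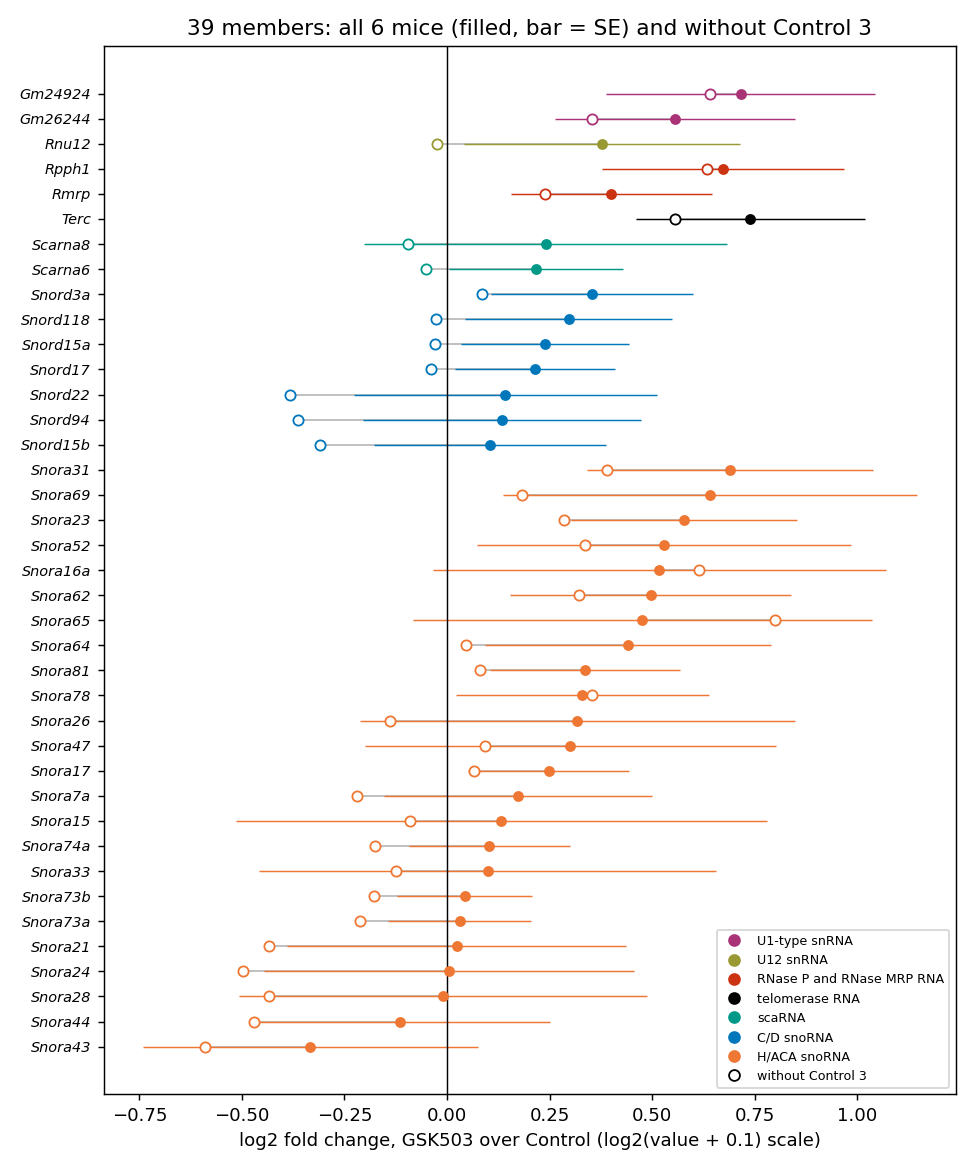
Log2 fold change of GSK503 over control for the 39 small structured RNAs, ordered by class, on the log2(value + 0.1) scale. Filled points use all 6 mice with bars of 1 standard error, and open points leave out control mouse 3. 36 filled points and 18 open points lie above 0.

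The 4 most abundant members were the U1-type snRNAs, *Rpph1* and *Rmrp*. *Gm24924* (18:14780824-14780987, in an intron of *Ss18*) had 22005, 26889 and 20844 CPM in controls and 42140, 38188 and 33936 CPM in treated mice. Every treated mouse lay above every control, and by mean level the gene ranked 2nd of all genes in controls and 1st in treated mice. The means were 23246 ± 3208 and 38088 ± 4103 CPM (SD, n = 3). The log2 fold change was 0.72 (SE 0.33, adjusted p = 0.387 from limma, 0.0385 from limma-voom). It stayed between 0.64 and 0.82 when each mouse was left out in turn and was 0.60 on library size alone. *Gm26244* (18:10150977-10151140, in an intron of *Rock1*) had 15114, 19617 and 11322 CPM in controls and 22432, 21813 and 21749 CPM in treated mice. The treated mice again lay above all controls, with a log2 fold change of 0.55 (SE 0.29, adjusted p = 0.461 from limma, 0.191 from limma-voom). It ranged from 0.35 without control mouse 3 to 0.75 without control mouse 2.

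Both U1-type genes are 164 bases long and each differed at 1 base from the annotated U1 gene *Rnu1a1*, and at 2 bases from the other. Reads of U1 copies can therefore be assigned to either, and the split between them is uncertain. *Rnu1a1*, which the member rule would have taken, was not listed, so reads of other U1 copies may also be counted in these 2 genes. Their sum is less exposed to the split between them, but not to such reads. It took 3.78%, 4.75% and 3.30% of the summed values in controls and 6.05%, 5.58% and 5.38% in treated mice. The treated shares were all higher, with means of 3.94% ± 0.742 and 5.67% ± 0.346 (SD, n = 3). The genes around the 2 U1-type genes, given by position alone, were not called. *Ss18* had 96.4 and 101.6 CPM (log2 fold change 0.08, adjusted p = 0.683 from limma). *Rock1* had 149.7 and 138.1 CPM (log2 fold change -0.11, adjusted p = 0.560 from limma).

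*Rpph1* had 20734, 18397 and 17976 CPM in controls and 33064, 31652 and 26531 CPM in treated mice. The groups were separate, with every treated mouse above every control. Its log2 fold change was 0.67 (SE 0.29, adjusted p = 0.366 from limma, 0.0310 from limma-voom), and leaving out any mouse gave 0.61 to 0.77. *Rmrp* (4:43492788-43493058, minus strand) had 9897, 12409 and 7908 CPM in controls and 14200, 13684 and 11502 CPM in treated mice. Here control mouse 2 lay above treated mouse 3, so the groups overlapped, with a log2 fold change of 0.40 (SE 0.25, adjusted p = 0.527 from limma), or 0.24 without control mouse 3.

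The ratio of *Rpph1* to *Rmrp* within a library, which does not depend on how the library is scaled, came to 2.10, 1.48 and 2.27 in controls and 2.33, 2.31 and 2.31 in treated mice. The treated mice were nearly identical (SD 0.011) and all above the controls (SD 0.415), with control mouse 3 the nearest to them. RNase P and RNase MRP share most of their proteins, and none of 11 such genes was called, with 6 above 0, 5 below 0 and a median log2 fold change of 0.05. *Pop5*, a subunit of both enzymes, had the smallest p (log2 fold change 0.20, adjusted p = 0.471 from limma). *Rpph1* overlaps the annotated spans of *Parp2*, on the opposite strand, and *Ccnb1ip1*, on the same strand, and reads there may not be told apart because the strand setting of the counting is not given. *Parp2*, a poly(ADP-ribose) polymerase, had 43.1, 37.6 and 39.8 CPM in controls and 34.9, 36.7 and 36.3 CPM in treated mice (log2 fold change -0.16, adjusted p = 0.462 from limma). *Parp2* was thus lower in every treated mouse while *Rpph1* was higher. *Ccdc107*, which overlaps *Rmrp* on the opposite strand, had a log2 fold change of 0.02 (adjusted p = 0.971 from limma).

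**Figure D3:**
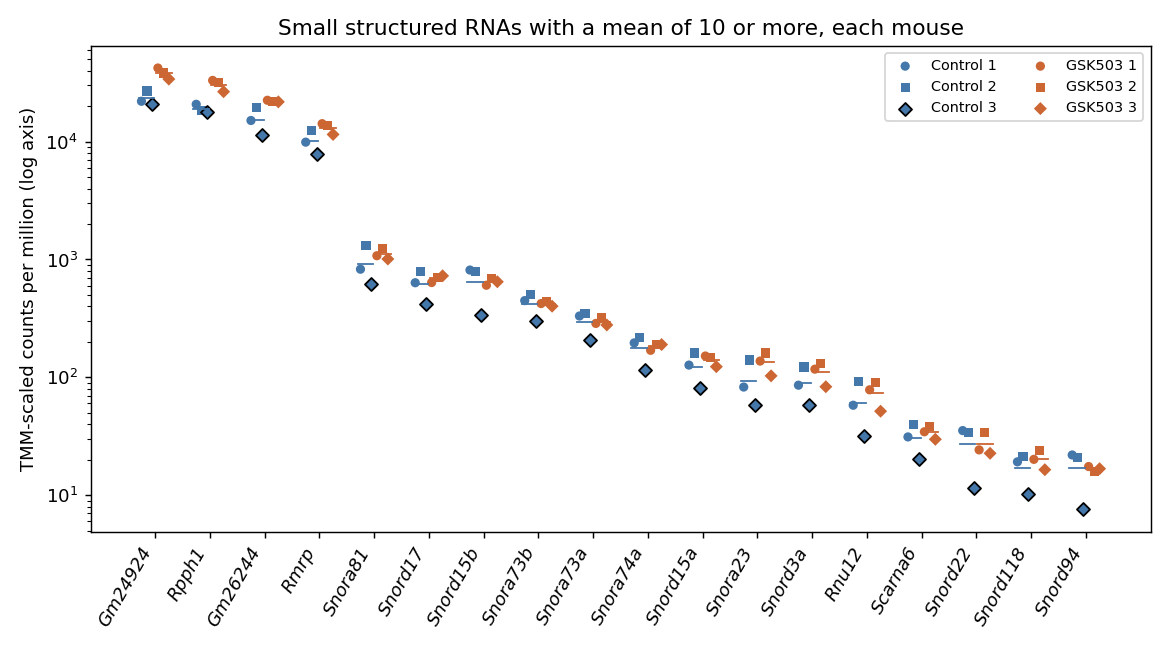
Values of the 18 members with a mean of 10 CPM or more in each of 6 mice, in TMM-scaled CPM on a log axis, ordered by mean. Controls are blue and treated mice orange, the black-edged diamond is control mouse 3 and short lines are group means. Control mouse 3 is the lowest of the 6 for all 18, and *Gm24924*, *Gm26244* and *Rpph1* are the members whose groups do not overlap.

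The U1-type, RNase P and RNase MRP RNAs together took 6.89%, 7.90% and 5.95% of the summed values in controls and 10.5%, 9.79% and 9.05% in treated mice. All 31 snoRNAs together took 0.372%, 0.461% and 0.229% in controls and 0.347%, 0.384% and 0.352% in treated mice. The snoRNA share thus had close group means, 0.354% ± 0.117 and 0.361% ± 0.0203 (SD, n = 3), with both the highest and the lowest value among the controls. The ratio of U1-type to snoRNA sums within a library was 10.2, 10.3 and 14.4 in controls and 17.5, 14.5 and 15.3 in treated mice. Control mouse 3 lay next to the treated mice in this ratio, while controls 1 and 2 were lower. For RNase P and RNase MRP RNA over snoRNAs the ratios were 8.39, 6.83 and 11.6 in controls and 12.8, 10.97 and 10.4 in treated mice, and the groups overlapped. The smallest p of an exact permutation test over 3 mice against 3, two-sided, is 0.1.

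**Figure D4:**
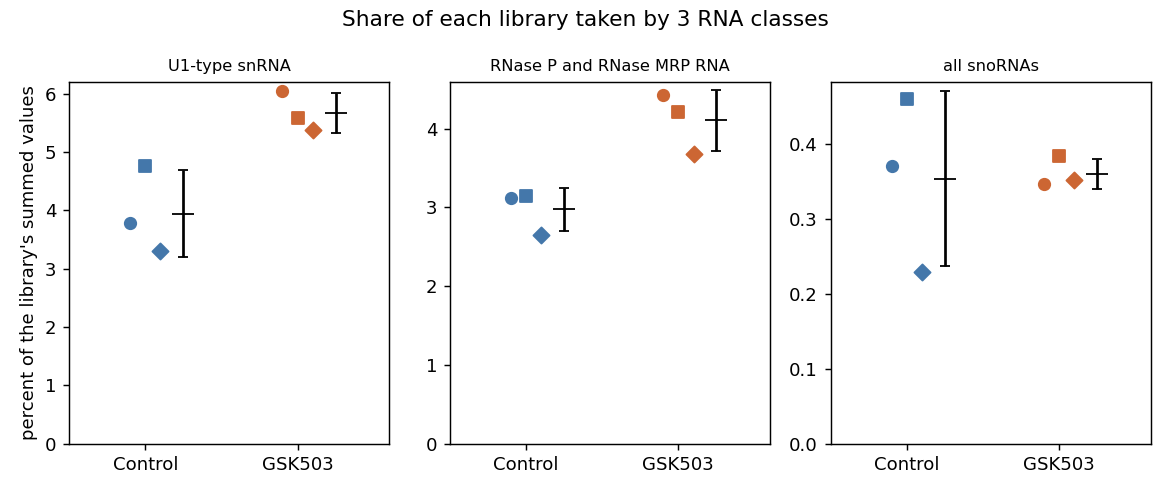
Percent of each library's summed values taken by the U1-type snRNAs, by the RNase P and RNase MRP RNAs and by all 31 snoRNAs, in 3 panels with their own axes from 0. Circles, squares and diamonds are mice 1, 2 and 3, and black bars are the mean ± SD (n = 3). Treated mice lie above all controls in the first and second panels and between the controls in the last.

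*Terc* had 2.68, 4.46 and 2.33 CPM in controls and 6.18, 3.89 and 5.62 CPM in treated mice. Treated mouse 2 lay below control mouse 2, so the groups overlapped. Its log2 fold change was 0.74 (SE 0.28, adjusted p = 0.295 from limma), and 0.56 without control mouse 3. *Tert*, the catalytic subunit, had a log2 fold change of 0.04 (adjusted p = 0.963 from limma) and *Tep1*, a telomerase-associated protein, -0.13 (adjusted p = 0.563 from limma). *Rnu12*, the minor spliceosome RNA, had 57.9, 91.4 and 31.5 CPM in controls and 78.3, 90.6 and 51.5 CPM in treated mice, with a log2 fold change of 0.38 with all mice and -0.03 without control mouse 3. Of 31 spliceosomal snRNP proteins, 0 were called, 17 lay above 0 and 14 below, and *Prpf8*, the large U5 protein, had the smallest p (log2 fold change -0.20, adjusted p = 0.329 from limma).

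The 7 C/D snoRNAs all had log2 fold changes above 0 with 6 mice, from 0.10 to 0.35, and 1 of 7 without control mouse 3. *Snord15b* had 813.1, 789.6 and 337.8 CPM in controls and 604.2, 690.2 and 646.8 CPM in treated mice. Controls 1 and 2 lay above every treated mouse and control 3 below every treated mouse, and the group means were 646.8 ± 267.9 and 647.1 ± 43.0 CPM (SD, n = 3). *Snord17* had 634.4, 789.3 and 416.8 CPM in controls and 636.9, 704.4 and 726.4 CPM in treated mice, again with the highest and the lowest value among the controls. *Snord15a* had 126.9, 160.4 and 81.9 CPM in controls and 151.5, 146.8 and 123.05 CPM in treated mice, so its copy in the same host, *Snord15b*, was 4.13 to 6.41 times as high in controls and 3.99 to 5.26 times in treated mice. Both are encoded in *Rps3*, a ribosomal protein gene with a log2 fold change of 0.04 (adjusted p = 0.909 from limma).

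*Snord3a*, the U3 snoRNA that acts in processing of the 18S rRNA rather than in methylation, had 85.7, 122.5 and 58.8 CPM in controls and 117.2, 131.9 and 83.2 CPM in treated mice. It has 2 annotated copies, and its log2 fold change of 0.35 was the highest of the C/D class and remained at 0.09 without control mouse 3. *Snord118*, the U8 snoRNA needed for 28S and 5.8S rRNA maturation, had 19.2, 21.4 and 10.3 CPM in controls and 20.1, 23.8 and 16.4 CPM in treated mice. For both RNAs control mouse 3 was the lowest library, and the remaining mice of the 2 groups were mixed. *Snord22* had 35.3, 33.9 and 11.6 CPM in controls and 24.2, 34.0 and 22.6 CPM in treated mice. *Snord94* had 21.9, 21.0 and 7.56 CPM in controls and 17.5, 15.8 and 16.8 CPM in treated mice. In these 2 RNAs the sign changed without control mouse 3, since their log2 fold changes were 0.14 and 0.13 with all mice and -0.38 and -0.36 without it. For *Snord22* the sign changed in 2 of 15 alternatives. Among 5 core C/D proteins none was called, and *Fbl*, the methyltransferase fibrillarin, was lower in every treated mouse, with 35.8 ± 0.579 against 29.3 ± 2.29 CPM (SD, n = 3, log2 fold change -0.29, adjusted p = 0.187 from limma).

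Of the 24 H/ACA snoRNAs, 21 had a log2 fold change above 0 with 6 mice and 12 without control mouse 3, and the medians were 0.27 and -0.02. *Snora81*, encoded in the translation initiation factor gene *Eif4a2*, had 826.5, 1319 and 613.5 CPM in controls and 1076, 1242 and 1009 CPM in treated mice. Control mouse 2 was the highest of all 6, so that the log2 fold change of 0.34 fell to 0.08 without control mouse 3. *Snora23*, in the importin gene *Ipo7*, had 82.6, 140.4 and 58.7 CPM in controls and 137.3, 160.4 and 102.8 CPM in treated mice. Its log2 fold change of 0.58 (adjusted p = 0.411 from limma) stayed above 0 with any mouse left out, from 0.29 to 0.91.

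*Snora73b* had 447.5, 507.8 and 300.4 CPM in controls and 422.5, 440.4 and 401.2 CPM in treated mice. *Snora73a* had 331.2, 349.6 and 205.6 CPM in controls and 286.6, 318.4 and 278.0 CPM in treated mice, and the ratio of *Snora73a* to *Snora73b* held between 0.678 and 0.740 in all 6 libraries. Both belong to the U17 snoRNA, which acts in cleavage of precursor ribosomal RNA rather than in pseudouridylation. *Snora74a*, in *Snhg4*, a symbol the annotation gives to both a lncRNA and an overlapping protein-coding gene, had 195.8, 217.0 and 115.5 CPM in controls and 169.4, 189.5 and 189.6 CPM in treated mice. In all 3 of these RNAs the treated values fell between control mouse 3 and control mouse 2, and the log2 fold changes were 0.04, 0.03 and 0.10 with all mice and -0.18, -0.21 and -0.17 without control mouse 3. On library size alone they were -0.07, -0.08 and -0.01.

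The other 19 H/ACA snoRNAs had means under 10 CPM. *Snora31* (0.69), *Snora69* (0.64) and *Snora23* (0.58) had the highest log2 fold changes of the class, and *Snora43* (-0.33), *Snora44* (-0.11) and *Snora28* (-0.01) the lowest. *Snora31*, in the *Tpt1* gene, had 0.868, 1.25 and 0.511 CPM in controls and 1.57, 1.23 and 1.42 CPM in treated mice. *Snora69*, in the X-linked *Rpl39* gene, had 0.198, 0.389 and 0.0471 CPM in controls and 0.322, 0.382 and 0.300 CPM in treated mice. *Snora43*, with 2 annotated copies, had 1.24, 1.77 and 0.829 CPM in controls and 1.59, 0.902 and 0.587 CPM in treated mice. The groups overlapped in all of these. Without control mouse 3 the log2 fold changes were 0.39 for *Snora31*, 0.18 for *Snora69*, 0.29 for *Snora23*, -0.59 for *Snora43*, -0.47 for *Snora44* and -0.43 for *Snora28*. *Snora65*, at 0.142 CPM on average, was listed at 0 in control mouse 1. None of the 4 H/ACA proteins was called, and *Nhp2* had the smallest p (log2 fold change 0.22, adjusted p = 0.389 from limma), while *Dkc1*, the pseudouridine synthase, had a log2 fold change of -0.05.

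The scaRNA *Scarna6*, in *Atg16l1*, had 31.2, 39.7 and 20.1 CPM in controls and 34.5, 38.1 and 29.8 CPM in treated mice, and *Scarna8*, in *Haus6*, had 0.617, 0.344 and 0.181 CPM in controls and 0.339, 0.550 and 0.416 CPM in treated mice. Their log2 fold changes of 0.22 and 0.24 became -0.05 and -0.09 without control mouse 3. In both, control mouse 3 was the lowest library and the groups overlapped.

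All 33 snoRNAs and scaRNAs lie within the annotated span of a gene on the same strand, called the host here by position alone. For 29 of them the host was tested, giving 26 host genes. Some of these RNAs overlap annotated exons of the host, as *Snora81* does in 14 of 129 *Eif4a2* transcripts and *Snord22* in 12 of 35 *Snhg1* transcripts. Reads there may not be told apart, so the levels of RNA and host in such a pair may not be independent. The hosts had log2 fold changes from -0.37 to 0.13 with a median of -0.03 (-0.08 without control mouse 3), and 0 were called by limma (lowest adjusted p = 0.194). The snoRNA or scaRNA had the higher log2 fold change in 28 of 29 pairs, with a median difference of 0.23, which became -0.05 without control mouse 3. Across the 29 pairs the fold changes of RNA and host had a Spearman rho of 0.065, as a description of pairs that share libraries and, in part, hosts. Control mouse 3 was the lowest library for 23 of the 29 RNAs, for 11 of the 26 hosts and, in the ratio of RNA to host, for 24 of 29. *Snora81* and its host differed in this way, as *Eif4a2* had 321.9, 345.0 and 320.2 CPM in controls and 294.2, 306.1 and 308.4 CPM in treated mice, and control mouse 3 was not low. Among 14 genes tested from a list of snoRNA host genes, most of them *Snhg* genes, 4 were above 0 and 10 below, and *Snhg4* had the smallest p, with 16.2 ± 1.11 and 12.6 ± 0.720 CPM (SD, n = 3, log2 fold change -0.36, adjusted p = 0.194 from limma).

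**Figure D5:**
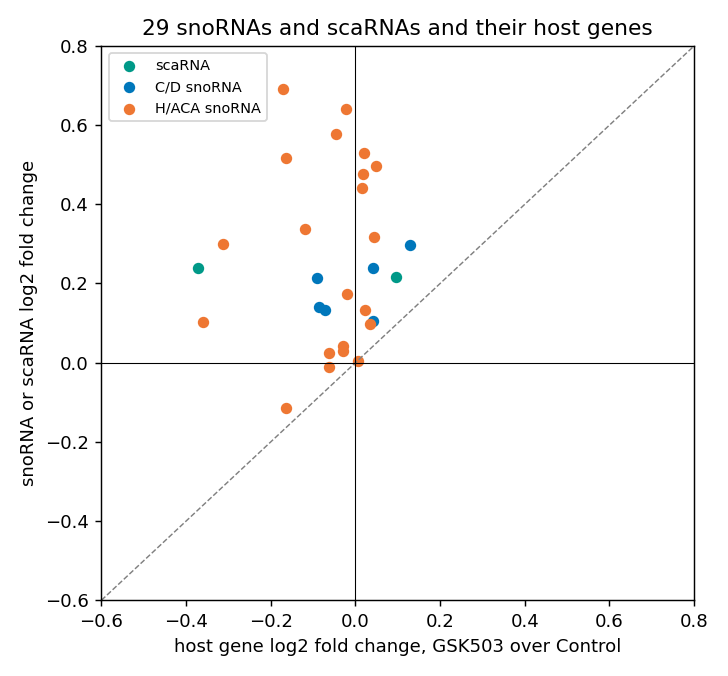
Log2 fold change (GSK503 over control, all 6 mice) of 29 snoRNAs and scaRNAs on the vertical axis against that of their host genes on the horizontal axis. Colours give the RNA class and the dashed line marks equal change. 28 of 29 points lie above the dashed line, and the hosts spread from -0.37 to 0.13.

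Level followed length. The shortest member was *Snora26* at 121 bases and the longest *Terc* at 423. Of 179 annotated names of these classes, 102 are shorter than 121 bases, and 0 of those were among the members. Of the 77 names of that length or longer, 39 were. The 7 C/D members are 126 to 238 bases long, so the class values do not describe shorter RNAs. The reason for the missing short RNAs was not tested. Of 25 members under 150 bases, 5 had a mean of 10 CPM or more, against 13 of 14 members of 150 bases or more, with median levels of 1.68 and 357.4 CPM. Spearman's rho of length and level was 0.69 over the 39 members, which share libraries and 1 library preparation. Length and log2 fold change had a rho of 0.25, and level and log2 fold change a rho of 0.072. Per kilobase of transcript, the mean levels in controls were 141744 for *Gm24924*, 93603 for *Gm26244*, 59674 for *Rpph1*, 37164 for *Rmrp*, 5168 for *Snora81*, 4461 for *Snord15b* and 2578 CPM for *Snord17*, an order that treated mice kept for these 7.

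A further 62 tested genes, named *Gm* or *LOC*, are annotated as snoRNA, snRNA or guide RNA by RefSeq and were not members. Of these 49 had a log2 fold change above 0, with a median of 0.23, and 26 had one above 0 without control mouse 3, with a median of -0.04. Control mouse 3 was the lowest library for 42 of the 62. The groups did not overlap in 1 gene with treated mice higher (*Gm25788*) and in 1 with treated mice lower (*Gm25683*), against 9.84% and 9.22% of all genes. *Gm25788* had 33.3, 33.9 and 19.5 CPM in controls and 43.6, 37.3 and 39.3 CPM in treated mice. Of the 62 genes 0 were called by limma, against 0.642% of all genes. Of the 10 snRNA genes, 8 were above 0, and 7 without control mouse 3. *Gm23238*, at 97.6% identity to *Rnu1a1*, had 6.72, 7.89 and 4.59 CPM in controls and 7.78, 7.47 and 7.48 CPM in treated mice. Its log2 fold change was 0.28, or 0.06 without control mouse 3. *Gm22042* and *Gm26110*, at 95.8% and 93.3% identity and lower levels, had 0.38 and 0.52, or 0.27 and 0.30 without control mouse 3. The groups overlapped in each of these U1-like genes.

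The proteins that transcribe, assemble and bind these RNAs were read in 12 lists of 143 genes in all, of which 142 were tested. None was called by limma in either direction, 82 were above 0 and 60 below, and the list medians lay between -0.06 and 0.17. Without control mouse 3, 79 were above 0 and 63 below, with list medians from -0.03 to 0.14 and 0 called, and on library size alone 36 of 143 were above 0. The groups did not overlap in 15 with treated mice higher (10.6%) and in 11 with treated mice lower (7.75%), against 9.84% and 9.22% of all genes. The signal recognition particle proteins, which bind the 7SL RNA and direct nascent secretory proteins to the endoplasmic reticulum, had the highest median. Of their 8 genes, 8 were above 0 and 5 did not overlap (*Srp9*, *Srp14*, *Srp54a*, *Srp54b* and *Srp68*). *Srp54a* and *Srp54b* are counted there as separate genes, and reads of such related copies may not be told apart. The genes behind the 8 and the 5 may therefore not be independent. *Srp9*, with the smallest p of the list, had 66.5, 63.6 and 54.0 CPM in controls and 73.9, 73.7 and 67.9 CPM in treated mice (log2 fold change 0.23, adjusted p = 0.321 from limma), and *Srp54a*, the GTPase subunit, had 158.7 ± 1.22 and 176.0 ± 2.95 CPM (SD, n = 3, log2 fold change 0.15, adjusted p = 0.355 from limma). The list median was 0.14 without control mouse 3 and 0.06 on library size alone, where 6 of 8 were above 0.

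RNA polymerase III makes the RNase P and RNase MRP RNAs, and its 13 subunits had 7 log2 fold changes above 0 and 6 below, with a median of 0.00. *Polr3f* had the smallest p (log2 fold change 0.19, adjusted p = 0.488 from limma). Among its 19 initiation factors and regulators 10 were above 0, and *Brf2*, the factor for promoters of the type that *Rpph1* and *Rmrp* have, had 5.31 ± 0.726 and 6.91 ± 0.997 CPM (SD, n = 3, log2 fold change 0.37, adjusted p = 0.412 from limma). Integrator, which processes the ends of U1 transcripts, had 7 of 14 subunits above 0, with *Ints6* at a log2 fold change of 0.22 (adjusted p = 0.287 from limma). The assembly factors had 5 of 12 above 0 (*Pih1d1* 0.20, adjusted p = 0.359), the 7SK particle and P-TEFb 4 of 7 (*Hexim1* 0.18, adjusted p = 0.461), and the end-processing and decay genes 12 of 16 (*Smn1*, the SMN protein of snRNP assembly, 0.34, adjusted p = 0.344), all from limma.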

How the data were processed

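Total RNA-Seq libraries of colonic crypts were grouped by their sample labels into 3 control and 3 GSK503-treated mice. The authors mapped paired-end reads of a stranded total RNA preparation to GRCm39 (STAR), obtained gene-level estimated counts (RSEM) and divided them by TMM-scaled library sizes (edgeR), and this CPM-like signal is what they deposited. The annotation, the strand setting of RSEM and any filter before deposit are not given in the sources used here. Raw counts were not used here, so the study's count test was replaced by limma (version 3.58.1, R 4.3.3) on log2(value + 0.1), with an intensity trend and Benjamini-Hochberg adjustment over the 16670 genes at 0.1 or more in 3 or more mice. The filter dropped 1379 genes. The fold changes understate those of low genes. Between 75.2% and 77.9% of a library's values were whole multiples (tolerance 0.01) of its step, which gave the totals, and totals and floors cover counting error only.

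Members were matched to GENCODE M39 by symbol. Those named are all with a mean of 10 or more, the 3 highest and 3 lowest by log2 fold change in each class, the 5 listed singly, their hosts, and in each protein list the gene with the smallest p. *Dkc1*, *Tert*, *Srp54a*, *Snora26*, *Snora65*, *Gm23238*, *Gm22042*, *Gm26110*, *Gm25788*, *Gm25683*, the further non-overlapping signal recognition particle genes and the neighbours of *Rpph1* and *Rmrp* were chosen after their values were seen. The members and lists were chosen with earlier results of these data known. Alternatives were other scalings, pseudocounts and filters, no trend, limma-voom, a replicate block and leaving out each mouse. The fit was tested on simulated data. Tables and figures were made with Python 3.11.15, pandas 2.3.3, Biopython and matplotlib 3.10.9. Organoid, ChIP-Seq, single-cell and human samples of the study were left out. A further allele that all 6 mice share is not reported here.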

Additional observations from a re-analysis of the deposited data

How the results depend on the processing

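No member passed an adjusted p of 0.05 in the reported limma test or in 14 of the 15 alternatives, and limma-voom on the recovered estimated counts called 2. Of the partner proteins 0 were called, and 1 on library size alone, *Fbl* (log2 fold change -0.40, adjusted p = 0.0476 from limma). Over all genes the calls ranged from 16 without the intensity trend to 261 on library size alone, against 107. With the replicate block 0 members, 0 partner genes and 33 of all genes were called, and same-numbered mice deviated from their group means with correlations of 0.032, -0.126 and -0.119, so the numbers did not pair the mice. For the 25 named members, 344 of 372 alternative values kept the direction and side of the threshold, 2 passed it and 26 changed sign, 20 of them with a mouse left out and 12 without control mouse 3. *Snora28* was 0.076 with a pseudocount of 0.01 and 0.13 by limma-voom. On library size alone *Snora73a* was -0.084, *Snora73b* -0.071, *Snora74a* -0.011 and *Snord15b* -0.0095. With each mouse left out, log2 fold changes ranged from -0.025 to 0.74 for *Rnu12*, -0.052 to 0.44 for *Scarna6*, -0.095 to 0.58 for *Scarna8*, -0.43 to 0.27 for *Snora28*, -0.47 to 0.12 for *Snora44*, -0.21 to 0.17 for *Snora73a*, -0.18 to 0.20 for *Snora73b*, -0.17 to 0.28 for *Snora74a*, -0.027 to 0.50 for *Snord118*, -0.029 to 0.46 for *Snord15a*, -0.31 to 0.32 for *Snord15b*, -0.040 to 0.42 for *Snord17*, -0.38 to 0.42 for *Snord22* and -0.36 to 0.40 for *Snord94*. The median over the members ranged from -0.03 without control mouse 3 to 0.46 without control mouse 2. The cause was not tested. *Snora16a* (0.018 CPM) and *Snora65* (listed at 0) lay under the value of 3 counts in control mouse 1.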
